A study of Saccharomyces cerevisiae with 6 samples.

Results

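The 7 genes described here are the siderophore transporter genes ARN1, ARN2, SIT1 and ENB1 and the mannoprotein genes FIT1, FIT2 and FIT3 of budding yeast (Saccharomyces cerevisiae), out of 5449 genes measured. They were picked by name as one family, with the difference between the strains and the scatter of the wild-type arrays already known, so the values of that contrast are given as a description. All 7 were measured, each by 1 probe set, and all were above background on all 6 arrays. Transcripts were measured on Affymetrix arrays in chemostat cultures, in which glucose supply held growth at 0.10 per hour, at 30 °C and pH 5 with air. The gcn4Δ group holds 3 arrays of an S288C MAT a strain lacking GCN4, grown in YNB medium with 0.1 mM 3AT. The wild-type group holds 3 arrays of S288C MAT a in YNB medium with 10 mM 3AT. 3AT (aminotriazole) inhibits a histidine biosynthesis enzyme, and GCN4 encodes the activator of amino acid biosynthesis genes. Strain and 3AT concentration differ together and cannot be told apart. The labels do not say whether replicates came from separate chemostats, so the spread between arrays may be technical.

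Siderophores are small molecules that bind ferric iron tightly. Baker's yeast makes none, but takes up iron bound to the siderophores of other microbes. The FIT proteins are mannoproteins of the cell wall, anchored through GPI, that help to hold siderophore-bound iron at the cell surface, and the ARN family of transporters brings the complexes into the cell. A second route reduces ferric iron with the FRE reductases and imports it through the Fet3-Ftr1 complex. Both routes are switched on by the transcription factors Aft1 and Aft2 when iron is short.

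The gcn4Δ label held: GCN4 read 14.5, 213 and 11.4 on the gcn4Δ arrays, against 7312, 7309 and 7248 in the wild type, so gcn4Δ replicate 2 was the only gcn4Δ array with GCN4 above background. The summed intensity of 6 MAT a markers was 11461 to 12136 in gcn4Δ and 8111 to 12097 in the wild type. The 4 MAT alpha markers summed to 694 to 727 in gcn4Δ and 605 to 934 in the wild type. Wild type replicate 1 stood apart. On the second principal component, with 19.1% of the variance, it lay at 16.61, against -13.98 and -10.43 for wild type replicates 2 and 3. In 197 genes it lay at least 1 log2 unit from the average of replicates 2 and 3. The same count, each time against the remaining pair, was 106 genes for replicate 2 and 64 for replicate 3. The 7 genes, the counts and medians of the lists, and some of the genes whose difference or call it moved are therefore given with and without it.

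All 7 genes were on average higher in gcn4Δ, and all but FIT1 were even across the gcn4Δ arrays and widely scattered across the wild-type arrays. ARN1 (YHL040C), a transporter of ferrichrome-type siderophores, read 5136, 5053 and 4450.4 in gcn4Δ replicates 1, 2 and 3, against 297, 2357 and 1110.5 in wild type replicates 1, 2 and 3. All 3 gcn4Δ arrays were above all 3 wild-type arrays, with group means of 4880 ± 374 and 1255 ± 1038 (SD, n = 3 each). The fitted log2 difference, gcn4Δ minus wild type, was 2.40 ± 0.68 (SE), or 1.59 ± 0.30 without wild type replicate 1.

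ARN2 (YHL047C), which transports triacetylfusarinine C, read 6159, 5834 and 5560 in gcn4Δ, against 229, 3620 and 778 in the wild type. The groups did not overlap, yet wild type replicate 2 was 15.8-fold above wild type replicate 1. ARN2 had the largest fitted log2 difference of the 7 genes, 2.76 ± 0.89 (SE), or 1.80 ± 0.58 without wild type replicate 1.

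SIT1 (YEL065W, also ARN3), the transporter of ferrioxamine B, read 4331, 4151 and 3790 in gcn4Δ, against 539, 3236 and 1787 in the wild type. The lowest gcn4Δ array was above the highest wild-type array, but by little. Its log2 difference was 1.48 ± 0.59 (SE), or 0.76 ± 0.24 without wild type replicate 1.

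ENB1 (YOL158C, also ARN4), the enterobactin transporter, read 3057, 2708 and 2934 in gcn4Δ, against 969.7, 2798 and 1637 in the wild type. It was the only one of the 7 genes whose groups overlapped, since wild type replicate 2 lay above gcn4Δ replicate 2. It also had the smallest log2 difference of the 7, 0.82 ± 0.35 (SE), or 0.44 ± 0.22 without wild type replicate 1.

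FIT1 (YDR534C), the first of the mannoprotein genes, read 928, 1021 and 519 in gcn4Δ, against 142, 188 and 208 in the wild type. Its scatter ran the other way from that of the other 6 genes: the wild-type arrays lay within 1.47-fold of each other and the gcn4Δ arrays within 1.96-fold, with gcn4Δ replicate 3 low. Its log2 difference was 2.16 ± 0.28 (SE) and 2.00 ± 0.29 without wild type replicate 1. Over the 6 fits that each left out 1 array it lay between 1.97 and 2.46.

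FIT2 (YOR382W) read 10923, 10710.3 and 10213 in gcn4Δ, against 289, 8953 and 4596 in the wild type. The gcn4Δ arrays lay within 1.07-fold of each other, while wild type replicate 2 was 31.0-fold above wild type replicate 1. That wild-type range of 4.95 log2 units was the widest of all 5449 genes. The log2 difference was 2.22 ± 1.16 (SE), or 0.73 ± 0.26 without wild type replicate 1.

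FIT3 (YOR383C), the chromosomal neighbour of FIT2, read 11791, 11722 and 11342 in gcn4Δ, against 787, 9935 and 6690 in the wild type. It followed FIT2 array by array, with a wild-type range of 3.66 log2 units and a log2 difference of 1.64 ± 0.88 (SE), or 0.51 ± 0.17 without wild type replicate 1. The highest intensity of any probe set was 13464 to 13863 on the gcn4Δ arrays and 13857 to 14737 on the wild-type arrays. Whether the FIT2 and FIT3 readings, which lie near that upper end, were compressed was not tested.

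**Figure D1:**
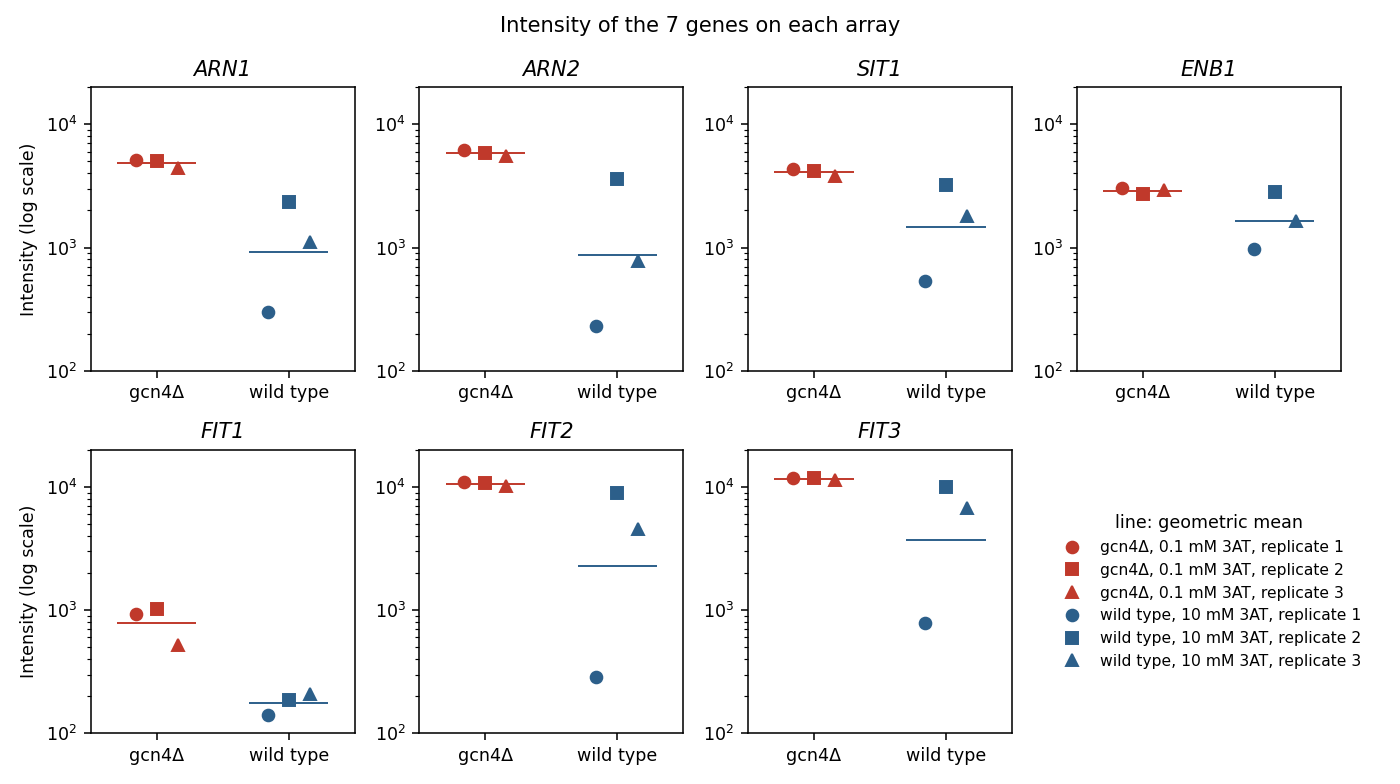
Intensity (log scale) of each of the 7 genes on the 3 gcn4Δ arrays (red, left) and the 3 wild-type arrays (blue, right), with the marker shape giving the replicate number and the line the geometric mean of a group. The gcn4Δ arrays lie close together except for FIT1, and wild type replicate 1 is the lowest array for all 7 genes, at 289 for FIT2 against 8953 in wild type replicate 2.

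Read as calls, 1 of the 7 genes, FIT1, passed an adjusted p of 0.05 in limma with gcn4Δ higher, as did 5.34% of all genes. The groups did not overlap, with gcn4Δ higher, for 6 of the 7, as was so for 21.1% of all genes. Leaving out wild type replicate 1, it was again 6 of the 7, beside 29.5% of all genes. Because the contrast was used to choose the genes, nothing is read from these shares. Without wild type replicate 1, 2 of the 7 passed, ARN1 and FIT1, beside 6.51% of all genes. Without wild type replicate 2 it was 5 of the 7, the 4 transporters and FIT1, beside 4.72% of all genes. In each of the other 4 omissions FIT1 alone passed, beside 2.73% of all genes without wild type replicate 3 and 1.14%, 1.43% and 2.44% without gcn4Δ replicates 1, 2 and 3. FIT2 and FIT3 passed in none of the 6 omissions. Leaving out wild type replicate 2 widened the log2 differences, to 3.08 ± 0.51 for ARN1, 3.79 ± 0.47 for ARN2, 2.06 ± 0.46 for SIT1, 1.20 ± 0.22 for ENB1, 3.20 ± 1.04 for FIT2 and 2.34 ± 0.81 for FIT3 (SE), while FIT1 was at 2.20 ± 0.32. The median log2 difference over the 7 genes was 2.16, against 0.04 over all genes, and it was 0.76 against 0.05 without wild type replicate 1. In a bulk culture, a change in the share of cells that express a gene and a change in RNA per cell cannot be told apart.

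The size of the difference depended on which wild-type array stood on the other side. Against wild type replicate 1 alone, the mean of the gcn4Δ arrays was 36.7-fold higher for FIT2, 25.5-fold for ARN2, 16.4-fold for ARN1, 14.8-fold for FIT3, 7.58-fold for SIT1, 5.56-fold for FIT1 and 2.99-fold for ENB1. Against wild type replicate 2 alone, it was 4.21-fold higher for FIT1 and 2.07-fold for ARN1, and between 1.03-fold (ENB1) and 1.61-fold (ARN2) for the others. Against wild type replicate 3 the folds lay between, from 1.74 for FIT3 to 7.52 for ARN2, except that FIT1 was lowest there at 3.79. The lowest fold against any single wild-type array was thus 3.79 for FIT1, 2.07 for ARN1 and between 1.03 and 1.61 for the others. The medians of the 7 log2 differences were 3.88, 0.34 and 1.21 against wild type replicates 1, 2 and 3, where the medians over all genes were -0.01, 0.06 and 0.05.

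**Figure D2:**
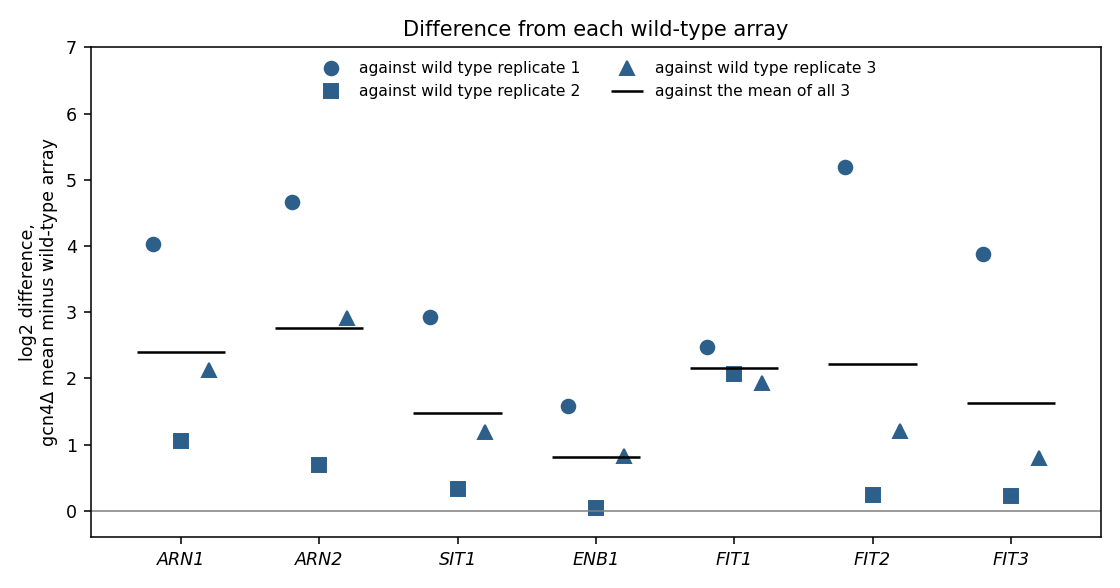
For each of the 7 genes, the log2 difference between the mean of the gcn4Δ arrays and each single wild-type array (circle, square and triangle for replicates 1, 2 and 3), with the line showing the difference from the mean of all 3. The circles reach 5.20 for FIT2, the squares lie at 0.05 to 1.05 apart from FIT1 at 2.07, and FIT1 alone has its 3 markers together.

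Within the wild type, replicate 1 was the lowest array for all 7 genes, and replicate 2 was the highest for all but FIT1. The full order, replicate 2 over replicate 3 over replicate 1, held for 6 of the 7 genes and for 16.7% of all genes. The median wild-type range of the 7 genes was 2.99 log2 units, against 0.29 over all genes. By contrast, their median range over the gcn4Δ arrays was 0.18, against 0.21 over all genes. FIT2, ARN2, FIT3, ARN1 and SIT1 ranked 1, 4, 5, 10 and 18 for the width of their wild-type range, ENB1 ranked 123 and FIT1 1024. Of the 308 genes with a wild-type range of at least 1 log2 unit, 53 (17.2%) had the order replicate 2, replicate 3, replicate 1. Those 53 included 6 of the 7 genes and 10 of the other iron genes listed below. Because the wild-type scatter was known when the genes were chosen, nothing is read from these counts.

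The other iron genes, 33 in 4 lists drawn from textbook knowledge, were all measured. These and the further lists were drawn with earlier results of these data known, so their counts are given as a description. In all, 6 were higher, 3 were lower and 24 were not called, beside 11.3% of all genes called in either direction. Their median log2 difference was 0.27. Without wild type replicate 1, 9 were higher and 3 lower (all genes 13.1%). Without wild type replicate 2, 12 were higher and 3 lower (all genes 10.1%). Only 2, FRE2 and HMX1, were higher in each of the other 4 omissions.

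Among the reductases, which feed the other uptake route, 3 of 8 were higher and 0 lower (median 1.45), beside 5.34% of all genes higher. Without wild type replicate 1 it was 4 higher and 0 lower (median 0.96), beside 6.51% of all genes higher. FRE2, a ferric reductase, read 842, 657 and 419 in gcn4Δ, against 71.0, 170.5 and 104.5 in the wild type, without overlap, and rose by 2.51 ± 0.37 (SE, adjusted p = 0.00746, limma). FRE3, which reduces siderophore-bound iron, rose by 2.48 (adjusted p = 0.0387), and FRE8 by 0.76 (adjusted p = 0.0413). Omitting wild type replicate 3, or any gcn4Δ array, ended both calls (highest adjusted p 0.137 for FRE3 and 0.122 for FRE8), while FRE2 passed in all 6 omissions. FRE5 and FRE1 were scattered like the transporter genes. FRE5 read 1235, 1241 and 1417 in gcn4Δ, against 43.9, 792 and 339 in the wild type, a log2 difference of 2.51 that did not pass (adjusted p = 0.143). FRE1 was at 2.15 (adjusted p = 0.0831). Omitting wild type replicate 1 shrank both, FRE5 to 1.32 (adjusted p = 0.0516) and FRE1 to 1.41 (adjusted p = 0.0582), neither past the threshold. Omitting wild type replicate 2 brought both past it, at 3.41 and 2.85 (adjusted p = 0.0457 and 0.0146).

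In the list of reductive uptake and its copper supply, 2 of 9 genes were higher and 0 lower (median 0.59), beside 5.34% of all genes higher. Without wild type replicate 1 it was 3 higher and 0 lower (median 0.48), beside 6.51% of all genes higher. The 2 called over all arrays were ATX1, a copper chaperone, at 0.86 (adjusted p = 0.0446), and FTH1, a vacuolar iron exporter subunit, at 0.59 (adjusted p = 0.0410). Each kept its call in 1 of the 6 omissions, that of wild type replicate 2. The highest adjusted p in the others was 0.150 for ATX1 and 0.164 for FTH1. FTR1, the high-affinity iron permease, was at 1.37 (adjusted p = 0.103), FET3, its multicopper oxidase partner, at 1.27 (adjusted p = 0.107) and CCC2, which loads copper into Fet3, at 1.51 (adjusted p = 0.0892). All 3 passed without wild type replicate 1, at 0.81, 0.73 and 0.95 (adjusted p = 0.0207, 0.00602 and 0.0402). FTR1 and CCC2 also passed without wild type replicate 2, at 1.77 and 1.97. FET4, the low-affinity iron transporter, pointed the other way at -1.47 (adjusted p = 0.109). It was at -0.96 (adjusted p = 0.133) on omitting wild type replicate 1, and passed at -2.03 (adjusted p = 0.0190) without wild type replicate 3.

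Among 9 genes of iron redistribution and sparing, 1 was higher and 2 were lower (median 0.20), beside 11.3% of all genes called in either direction. Without wild type replicate 1 it was 2 higher and 2 lower (median 0.16), beside 13.1% of all genes. HMX1, heme oxygenase, rose by 2.49 ± 0.37 (SE, adjusted p = 0.00815). ISU1, a scaffold of iron-sulfur cluster assembly, fell by 0.78 (adjusted p = 0.00272), and both passed in all 6 omissions. CCC1, which moves iron into the vacuole for storage, fell by 0.73 (adjusted p = 0.0422), but it was called in only 1 of the 6 omissions, that of wild type replicate 2 (highest adjusted p 0.160). Without wild type replicate 1, the gene lower beside ISU1 was VHT1, named after its values were seen. VHT1 was then at -0.61 (adjusted p = 0.0398), against -0.21 (adjusted p = 0.70) over all arrays. TIS11 (also CTH2), whose product destabilises messages of iron-using proteins when iron is low, read 3949.7, 4572.5 and 3654.6 in gcn4Δ, against 129.6, 2273 and 1004 in the wild type. Its log2 difference of 2.60 did not pass (adjusted p = 0.131), but it reached the threshold at 1.42 on omitting wild type replicate 1 and at 3.49 on omitting wild type replicate 2.

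Of the 7 regulators, 0 were higher and 1 was lower (median 0.02), with the same counts and a median of 0.08 without wild type replicate 1. Beside these stand 11.3% of all genes called in either direction, and 13.1% without that array. AFT1, the main activator of the 7 genes, read 1957, 1687 and 1829 in gcn4Δ, against 1166, 1813 and 1383 in the wild type, and its groups overlapped (log2 difference 0.35, adjusted p = 0.221). AFT2, its paralogue, was at -0.02 (adjusted p = 0.915), and its sign turned in 2 of the omissions. GRX4, a glutaredoxin that acts with its paralogue GRX3 to restrain Aft1 when iron is sufficient, read 428, 429.5 and 481 in gcn4Δ, against 1473, 2181 and 1984 in the wild type. It fell by 2.06 ± 0.16 (SE, adjusted p = 0.000416) and passed in all 6 omissions. The wild-type order of the transporter genes, replicate 2 highest and replicate 1 lowest, held for 3 of the 7 regulators, GRX4 and AFT1 among them. It held for 16.7% of all genes. YAP5, an activator that responds to high iron, was at 0.41 (adjusted p = 0.398).

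In the copper list (median 0.47, or 0.24 without wild type replicate 1) 1 of 4 genes was higher in either fit. The shares of all genes higher were 5.34% and 6.51%. The gene called was the vacuolar copper exporter gene CTR2, at 0.69 (adjusted p = 0.0202). That call was lost on omitting wild type replicate 3 or any gcn4Δ array (highest adjusted p 0.0914). CTR1, the main copper importer, was at 0.71 (adjusted p = 0.403), or 0.26 (adjusted p = 0.744) without wild type replicate 1, and MAC1, the copper-sensing activator, at -0.40 (adjusted p = 0.0777). Of 10 genes for iron-using proteins 0 were higher and 2 lower (median -0.29), beside 11.3% of all genes called in either direction. Without wild type replicate 1 it was 4 lower (median -0.36), beside 13.1% of all genes. The 2 that joined, named after their values were seen, were ACO1, aconitase, at -0.37 (adjusted p = 0.0474) and SDH2, a succinate dehydrogenase subunit, at -0.49 (adjusted p = 0.0367). The 2 called over all arrays were CCP1, cytochrome c peroxidase, at -1.40 (adjusted p = 0.0129) and LIP5, lipoate synthase, at -0.74 (adjusted p = 0.0125). CCP1 was not past the threshold without gcn4Δ replicate 2 (-1.42, adjusted p = 0.0557), nor LIP5 without gcn4Δ replicates 1 or 2 (-0.70 and -0.68, adjusted p up to 0.0680), so that neither passed without gcn4Δ replicate 2. HEM15, ferrochelatase, was at -0.46 (adjusted p = 0.0736).

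Relatives of the 7 genes by protein family were read in the same fit. Of 8 measured transporters of the DHA2 and ARN-like families, 0 were higher and 1 was lower (median 0.08), with the same counts and a median of 0.10 without wild type replicate 1. Over all genes, 11.3% were called in either direction, and 13.1% without that array. The gene lower was ATR1, which exports 3AT, at -2.17 (adjusted p = 6.41e-05). GEX1, a glutathione exchanger and close relative of the ARN transporters, read 151, 182 and 162 in gcn4Δ, against 177, 130.0 and 162.5 in the wild type, measured with a probe set marked as shared between similar genes. Its log2 difference of 0.08 did not pass (adjusted p = 0.727), and its sign turned without wild type replicate 2. VBA3, a vacuolar amino acid transporter also on a shared probe set, was below background on all wild-type arrays and at least 1.54-fold higher in gcn4Δ. Its adjusted p of 0.0562 (limma) belongs to the fitted log2 difference of 1.28, not to that bound. VBA3 passed without gcn4Δ replicate 3 (adjusted p = 0.0230). Of 16 other cell wall mannoprotein genes 1 was higher and 0 lower (median 0.07), beside 5.34% of all genes higher. The count on omitting wild type replicate 1 was 3, CWP1, TIP1 and TIR2 (median 0.07), beside 6.51%. TIR2, named after its values were seen, was then at 0.35 (adjusted p = 0.0435), against 0.21 (adjusted p = 0.362) over all arrays. The gene called over all arrays was CWP1, at 1.36 ± 0.18 (SE, adjusted p = 0.00530), which passed in all 6 omissions. TIP1 was at 1.00 (adjusted p = 0.0886), or 1.39 (adjusted p = 0.000598) without wild type replicate 1, and SPI1 at 0.84 (adjusted p = 0.0858).

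**Figure D3:**
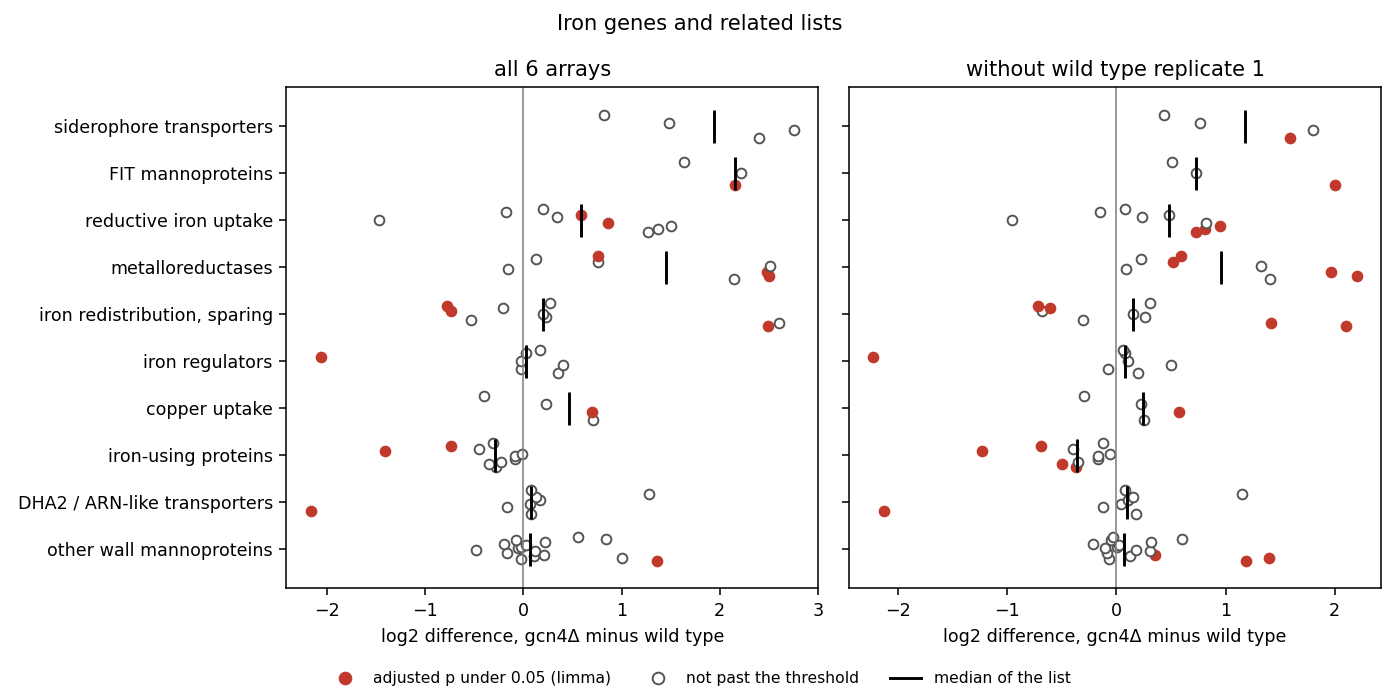
The log2 difference, gcn4Δ minus wild type, of every measured gene in the 2 member lists and 8 comparison lists, over all 6 arrays (left) and without wild type replicate 1 (right), with filled points past an adjusted p of 0.05 in limma and a bar at each list's median. The medians of the transporter and FIT lists are 1.94 and 2.16 on the left and 1.18 and 0.73 on the right.

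The mean profile of the 7 genes, which FIT1 followed least, was set against those of the other genes. The log2 values of each of the 444 other genes that varied enough (SD of at least 0.5 and above background on at least 3 arrays) were correlated with the mean profile of the 7 genes over the 6 arrays. The 10 with the highest Pearson's r were FTR1 (0.998), TIS11 (0.998), CCC2 (0.997), FRE5 (0.994), GLO4 (0.991), FRE1 (0.991), FRE6 (0.991), LSO1 (0.990), YTP1 (0.989) and SUE1 (0.988). These values are descriptions over 6 shared arrays in 2 groups. Of the 10 genes, 6 were on the iron lists, which hold 33 of the 5449 genes. How many of the 444 genes were on those lists was not counted, so nothing is read from that number. GLO4, a mitochondrial glyoxalase, read 434, 409 and 425.5 in gcn4Δ, against 159, 387 and 266 in the wild type. LSO1 read 57.3, 55.0 and 49.7 in gcn4Δ, against 8.53, 29.4 and 22.1 in the wild type, with wild type replicate 1 below background. YTP1, a membrane protein, was at a log2 difference of 1.42 and SUE1, which acts in cytochrome c turnover, at 1.10. None of the 10 passed over all 6 arrays. Of the genes outside the iron lists, LSO1, YTP1 and SUE1 passed without wild type replicate 1, at 1.08, 0.77 and 0.65 (adjusted p = 0.00651, 0.0168 and 0.0464), while GLO4 did not, at 0.40 (adjusted p = 0.165). GLO4, at 0.73 (adjusted p = 0.160) over all arrays, passed on omitting wild type replicate 2, at 1.04 (adjusted p = 0.0370). FRE6, a vacuolar reductase, was at 0.76 (adjusted p = 0.0667), and omitting wild type replicate 1 brought it past the threshold at 0.52 (adjusted p = 0.0322).

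Among themselves, each of ARN1, ARN2, SIT1, ENB1, FIT2 and FIT3 had an r of 0.953 to 0.996 with the mean profile of the other 6, over the same 6 arrays. FIT1 stood lower at 0.757. FIT2 and FIT3 were the closest pair (0.999), and FIT1 and FIT3 the most distant (0.668).

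**Figure D4:**
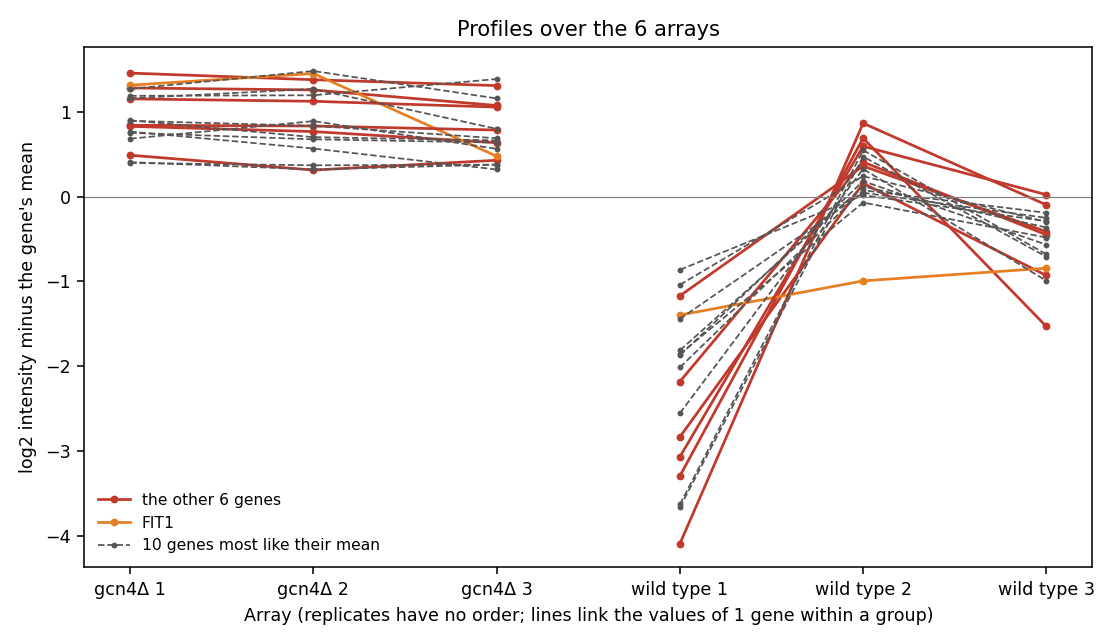
The log2 intensity of each gene minus its own mean, on the 3 gcn4Δ arrays (left) and the 3 wild-type arrays (right), for the 7 genes (solid, FIT1 in orange) and the 10 genes whose profile is most like their mean (dashed). All lie above their mean in gcn4Δ and below it in wild type replicate 1, and FIT1 alone of the 7 stays low in wild type replicate 2.

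FIT2 and FIT3 lie in a run of iron genes on chromosome XV, in the order FRE3, YOR381W-A, FIT2, FIT3 and FRE5 in the R64 gene table. All 5 had their wild-type arrays in the order replicate 2, replicate 3, replicate 1, as did 16.7% of all genes. For all 5 the gcn4Δ arrays lay above the wild-type arrays, as was so for 21.1% of all genes. FIT2 and FIT3 were chosen with these values known, so nothing is read from the counts. YOR381W-A read 61.5, 76.6 and 33.1 in gcn4Δ, against 7.83, 18.0 and 15.5 in the wild type. All 3 wild-type readings were below background, so their order carries no information. With those readings raised to background, YOR381W-A was at least 2.76-fold higher in gcn4Δ. Its adjusted p of 0.0229 (limma) belongs to the fitted log2 difference of 2.05, not to that bound. That call was ended by 3 of the 6 omissions, those of wild type replicate 3 and of gcn4Δ replicates 1 and 2 (highest adjusted p 0.0935). The genes at the edges of the run had other wild-type orders. The gcn4Δ arrays of RDR1 still lay above its wild-type arrays, while those of YOR385W overlapped them. RDR1, beside FRE3, was at a log2 difference of 0.21 (adjusted p = 0.175), and YOR385W, beside FRE5, at 0.40 (adjusted p = 0.196), with wild-type ranges of 0.17 and 0.62 log2 units.

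Over all 7 genes, 25 measured genes outside the family lay within 3 genes of a member, of which 5 were higher, 2 lower and the rest not past the threshold (median 0.12), beside 11.3% of all genes called in either direction. On omitting wild type replicate 1, 8 of the 25 were called (median 0.15), beside 13.1% of all genes. Those higher, named here after their values were seen, were FRE3 and YOR381W-A of the run above, PHR1 at 0.55, and HSP31 and FDC1 near FIT1 at 0.60 and 0.38. The 2 lower were CAN1, the arginine permease near SIT1, at -0.94 and CAB1 near FIT1 at -0.60. The calls of PHR1 and FDC1 were lost in 4 and 5 of the 6 omissions (highest adjusted p 0.0790 and 0.153), that of CAB1 without gcn4Δ replicate 1 (adjusted p = 0.0501).

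**Figure D5:**
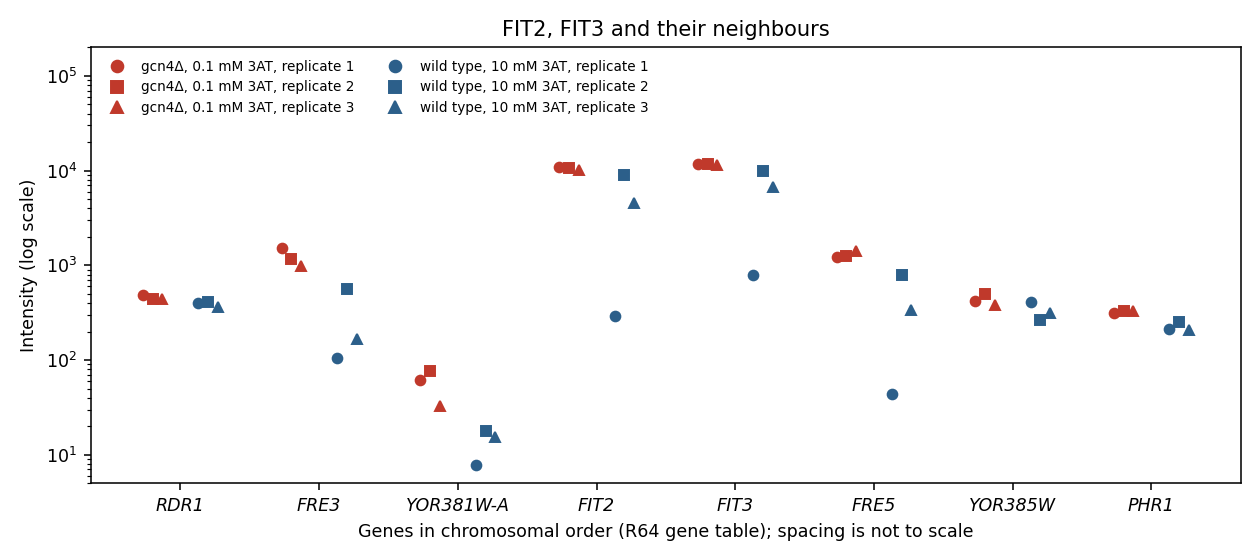
Intensity (log scale) of FIT2, FIT3 and their neighbours in chromosomal order, with the 3 gcn4Δ arrays (red) left of the 3 wild-type arrays (blue) for each gene and marker shapes for replicates. From FRE3 to FRE5 wild type replicate 1 is the lowest array, at 289 for FIT2 and 43.9 for FRE5, while RDR1 and YOR385W at the edges show no such drop.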

How the data were processed

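The deposited values are linear intensities; per the submitters' processing notes, the authors used RMA. As a method, RMA removes background, equalises distributions between arrays and combines the probes of a set. Log2 was taken with no pseudocount or rescaling. Probe sets were named through the platform annotation and the R64 gene table: of 10928, 7244 had 1 symbol, 1 several and 3683 none, and 5498 matched 5449 S. cerevisiae genes, with the brightest probe set kept for each. The 95th percentile of 1746 named probe sets of no S. cerevisiae gene (17.9 to 25.2 per array) was the background level, and median intensities were 664 to 712. Below it in a whole group, a fold is a bound. The R64 table served only for names and gene order.

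All 6 columns were used in 1 limma 3.58.1 fit (R 4.3.3, lmFit and eBayes, no covariates), gcn4Δ minus wild type, with Benjamini-Hochberg adjustment over 5498 probe sets and a threshold of 0.05. Means ± SD are over linear intensities, and folds over log2 means. The fit was tested on simulated data. Named genes were the 7 members, 10 iron and ARN-like genes fixed by name (GEX2 among them, not analysed here), up to 3 genes per list by size of difference, lists' called genes where 3 or fewer, the 10 genes most like the members' mean profile, and neighbours, named after their values were seen. Members and lists were chosen with earlier results of these data known. Alternatives were a replicate block, omission of each array, quantile normalization, median centring, a filter on the lowest 25% of probe sets, trend and robust variances, array weights, the mean of probe sets and a threshold of 0.01. The number of arrays limits the precision. Figures used matplotlib 3.10.9 in Python 3.11.15.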

Additional observations from a re-analysis of the deposited data

How the results depend on the processing

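All 7 genes kept their direction in all alternatives: 84 values also stayed on their side of the threshold and 7 passed it where the value over all arrays had not. With the block, the filter, trend and robust variances or the mean of probe sets, the members' differences could not change. Direction was therefore not tested in those fits. Genes called among all 5449 numbered 618, against 210 with the replicate number as a block, 1250 with array weights, 224 at a threshold of 0.01 and 220 to 713 with 1 array left out. Of the 7 genes, 3 were called with array weights and 1 to 5 with 1 array left out, against 1. Of the 33 other iron genes 9 were called, against 4 with the block, 16 with array weights, 4 at 0.01 and 4 to 15 with 1 array left out. The 6 of these that were higher became 2, 12, 2 and 2 to 12 in the same fits. The share of all genes called higher was not counted for the block, array weights or 0.01. Nothing is therefore read from the counts of higher genes in those fits. Array weights gave wild type replicate 1 a weight of 0.271 and gcn4Δ replicate 1 a weight of 4.72. With 1 array left out, the log2 difference of AFT2 ran between -0.078 and 0.050, and turned positive on omitting gcn4Δ replicate 2 (0.012) or wild type replicate 3. That of GEX1 ran between -0.047 and 0.177, and turned negative on omitting wild type replicate 2. The cause was not tested. Quantile normalization, median centring, the filter on low probe sets, trend and robust variances and the mean of probe sets moved no count of calls by over 1.5 times, and the members' median wild-type range was 2.97 and 3.01 in the first 2 of these. Deviations of arrays with the same replicate number had correlations of -0.336, -0.383 and -0.221 for numbers 1, 2 and 3, and no sample correlated best with its own number. Deviations from a mean of 3 arrays are tied to each other, so these values cannot decide whether same-numbered arrays were handled together.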

Other observations

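Wild type replicate 1 also differed from the other wild-type arrays in genes outside iron uptake, named here from the 20 widest wild-type ranges after their values were seen. HXT5, a hexose transporter, read 1705, 1606 and 874 in gcn4Δ, against 124, 1452 and 1444 in the wild type. SIP18, a protein made under water stress, read 2773, 2939 and 1263 in gcn4Δ, against 197, 1383 and 1898 in the wild type. Others were high there. IMD2, of GTP synthesis, read 558, 521 and 406 in gcn4Δ, against 2219.5, 279 and 259.9 in the wild type. ADH2, the glucose-repressed alcohol dehydrogenase, read 229, 217 and 160.1 in gcn4Δ, against 796.5, 123 and 115 in the wild type. Of the 20 widest ranges, 5 belonged to the 7 siderophore and FIT genes and 3 to the other iron genes.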
